A study of Homo sapiens with 24 samples.

Results

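The genes described here are 45 genes of the G1/S transition and of DNA replication, taken as a given list and read from 2 deposited tables of transcript abundance that hold 63241 and 36741 human genes. All 45 were found in both tables and all 45 reached the level needed for testing. Expression was measured in 24 RNA-seq libraries of poly(A) RNA, 3 per group, labelled as SH-SY5Y, a human neuroblastoma cell line. MCART1 is another name for SLC25A51, the carrier of NAD+ into mitochondria. The constructs were a short hairpin against MCART1 (shMCART1) with a scrambled hairpin as its control (shScramble), and MCART1 overexpression (oeMCART1) with its own negative control (oeNC). Each construct was profiled without MPP+ and after 24 h in 0.5 mM MPP+, a toxin of mitochondrial complex I used to model Parkinson's disease in cells, which makes 8 groups. Nothing in the labels ties the 3 libraries of a group to separate cultures or clones, so p-values measure the spread between these libraries, which may be technical.

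DNA replication starts when ORC, CDC6 and CDT1 load the ring-shaped MCM2 to MCM7 helicase onto origins in G1. At the G1/S transition cyclin E and its kinase promote entry into S phase, E2F1 drives transcription of many of the genes needed there, and CDC45, the GINS complex and MCM10 turn the loaded rings into moving helicases. DNA polymerase alpha with primase begins each strand, the clamp loader RFC puts the PCNA clamp in place, and polymerases delta and epsilon extend the new strands. FEN1 and LIG1 join the Okazaki fragments, RPA covers single-stranded DNA, ribonucleotide reductase, thymidylate synthase and thymidine kinase feed the nucleotide pools, and CAF-1 and UHRF1 act on the new chromatin. In proliferating cell lines most of these mRNAs peak near the G1/S boundary, so their level in a culture depends both on expression per cell and on the share of cells in cycle, which bulk RNA cannot tell apart.

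Short E2F words occurred in part of the promoters of the list. RefSeq promoter windows (GRCh38.p14, 250 bases before to 50 after the start) were matched for 38 of the 45 genes, and 19 of the 38 (50%) held at least 1 of the words TTTCGCGC, TTTGGCGC, TTTCCCGC or TTTGCCGC on either strand, against 3.99% of 27305 genes in the promoter table and 6.69% of 10522 genes that were also tested without MPP+. The NF-Y word CCAAT was in 23 of 38 (60.5%), against 39.7% and 43.6%. A match describes letters, not a bound site. Shown 5′ to 3′ on the gene's strand are the 150 bases before the RefSeq start of 6 genes on which the results turn, with E2F words in capitals, from CDT1 at chr16:88803639-88803788 (+), E2F1 at chr20:33686386-33686535 (-), PCNA at chr20:5126623-5126772 (-), POLA1 at chrX:24693768-24693917 (+), POLA2 at chr11:65261812-65261961 (+) and TYMS at chr18:657503-657652 (+).
POLA2: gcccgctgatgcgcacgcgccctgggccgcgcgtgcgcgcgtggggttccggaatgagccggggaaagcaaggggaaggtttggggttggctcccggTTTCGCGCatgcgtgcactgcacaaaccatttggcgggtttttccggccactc
CDT1: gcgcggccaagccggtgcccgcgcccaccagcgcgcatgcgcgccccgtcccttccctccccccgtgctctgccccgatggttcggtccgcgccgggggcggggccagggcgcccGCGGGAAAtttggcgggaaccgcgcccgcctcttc
TYMS: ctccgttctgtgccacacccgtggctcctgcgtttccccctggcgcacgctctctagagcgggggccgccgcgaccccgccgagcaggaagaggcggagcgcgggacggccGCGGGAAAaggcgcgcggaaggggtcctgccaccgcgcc
PCNA: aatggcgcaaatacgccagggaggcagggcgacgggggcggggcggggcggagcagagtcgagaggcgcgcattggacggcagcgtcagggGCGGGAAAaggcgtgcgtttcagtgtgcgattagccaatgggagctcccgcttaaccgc
E2F1: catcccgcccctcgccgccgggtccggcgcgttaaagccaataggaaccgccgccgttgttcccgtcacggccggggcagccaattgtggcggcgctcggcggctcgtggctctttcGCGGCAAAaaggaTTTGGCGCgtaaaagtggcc
POLA1: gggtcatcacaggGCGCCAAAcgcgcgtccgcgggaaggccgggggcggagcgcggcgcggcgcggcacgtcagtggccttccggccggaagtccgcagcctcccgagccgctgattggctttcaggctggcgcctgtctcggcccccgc
The E2F1 window holds 2 words and each of the others 1. Only named genes with an E2F word could be shown, so a word in every window was fixed by that choice. In CDT1, PCNA and TYMS the word reads GCGGGAAA, the reverse complement of TTTCCCGC. CDT1 and TYMS carry it at nearly the same distance before the start, yet their mRNAs moved in opposite directions below, as did those of CDT1 and POLA1.

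SLC25A51 followed the labels in each comparison of a MCART1 construct with its control, with log2 changes of -0.56 and 4.39 in the knockdown and overexpression without MPP+ and -0.49 and 6.63 with it (SE 0.14 and 0.09). In the knockdown its level was 6.91, 9.45 and 5.47 TPM (transcript abundance scaled for transcript length and to the same total in every library) against 10.5, 11.1 and 11.2 in shScramble without MPP+, and 5.12, 5.82 and 5.06 against 6.87, 8.38 and 8.47 with it. Overexpression gave 697, 674 and 678 TPM without MPP+ and 1008, 931 and 870 with it, while oeNC held 29.5, 35.7 and 29.7 without MPP+ and 7.87, 8.15 and 9.44 with it. The controls themselves lay apart without MPP+, with SLC25A51 higher in oeNC than in shScramble by 1.44 (SE 0.14, limma adjusted p = 0.0020), and with MPP+ that difference was 0.09 (adjusted p = 0.43). Markers of the labelled cell line were in part absent. Of 13 markers of sympathetic neuroblastoma, ELAVL4 was listed at 0 in all 12 libraries without MPP+, where PHOX2A reached at most 0.09 TPM and DBH at most 0.07. TH stayed at or under 0.04 TPM in all 24 libraries. Others were present at low levels, GATA3 at 3.85 to 7.24 TPM, HAND2 at 1.39 to 4.44, ISL1 at 1.68 to 4.80 and CHGA at 0.82 to 4.73. GATA2, at 15.2 to 39.1 TPM, made up most of the summed level of that list, which was 30.6 to 51.3 TPM. The growth conditions in the labels cover HEK293T, a line from human embryonic kidney, as well as SH-SY5Y, so kidney markers were read too. Of the 5 kidney markers PAX8 reached at most 0.05 TPM and CDH16 was listed at 0. PAX2 lay between 0.35 and 1.34 TPM, LHX1 between 0.24 and 1.68 and EPCAM between 1.25 and 3.54. The EPCAM range overlapped those of HAND2, ISL1 and CHGA. The blood markers summed to 9.43 to 47.7 TPM, most of it HBA1 at 8.18 to 41.7, with PTPRC at most at 0.17, and 9 mesenchymal markers summed to 18.1 to 45.4 TPM with COL1A2 at most at 0.09. The part of these marker levels in the results was not tested. Libraries had 13022 to 14306 genes at 1 TPM or more, and read depth is unknown because the tables hold TPM only.

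Changes are given as differences of log2(TPM + 1) with the standard error (SE) from limma, a linear model fitted across all genes of a table. A gene is called at a Benjamini-Hochberg adjusted p under 0.05 over all genes tested, 14703 without MPP+ and 14895 with it. Shares of all genes are given for adjusted calls on the deposited values only. Counts of the list at an unadjusted p, or under other scalings, have no such share beside them. Without MPP+, knockdown of MCART1 raised 8 of the 45 genes and lowered 15, with a median log2 change of -0.19 beside -0.15 over all genes, of which 8.64% were called higher and 25.6% lower. Overexpression without MPP+ raised 18 and lowered 7, with a median of 0.24 beside 0.16, when 33.5% of all genes were called higher and 14.7% lower. With MPP+, knockdown raised 7 and lowered 17, with a median of -0.12 beside -0.08 and 10.8% and 22.2% of all genes called. Overexpression with MPP+ raised 26 and lowered 10, with a median of 0.23 beside 0.26, and 46.7% of all genes were called higher and 14.2% lower. The medians of the list lay close to those of all genes, and individual genes moved in opposite directions within it. Splits of higher against lower depended on how libraries were scaled. With median-of-ratios scaling the counts became 13 and 11, 13 and 11, 11 and 12, and 11 and 19 in the same order, and the median over all tested genes became 0.02, -0.02, 0.01 and -0.01.

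**Figure D1:**
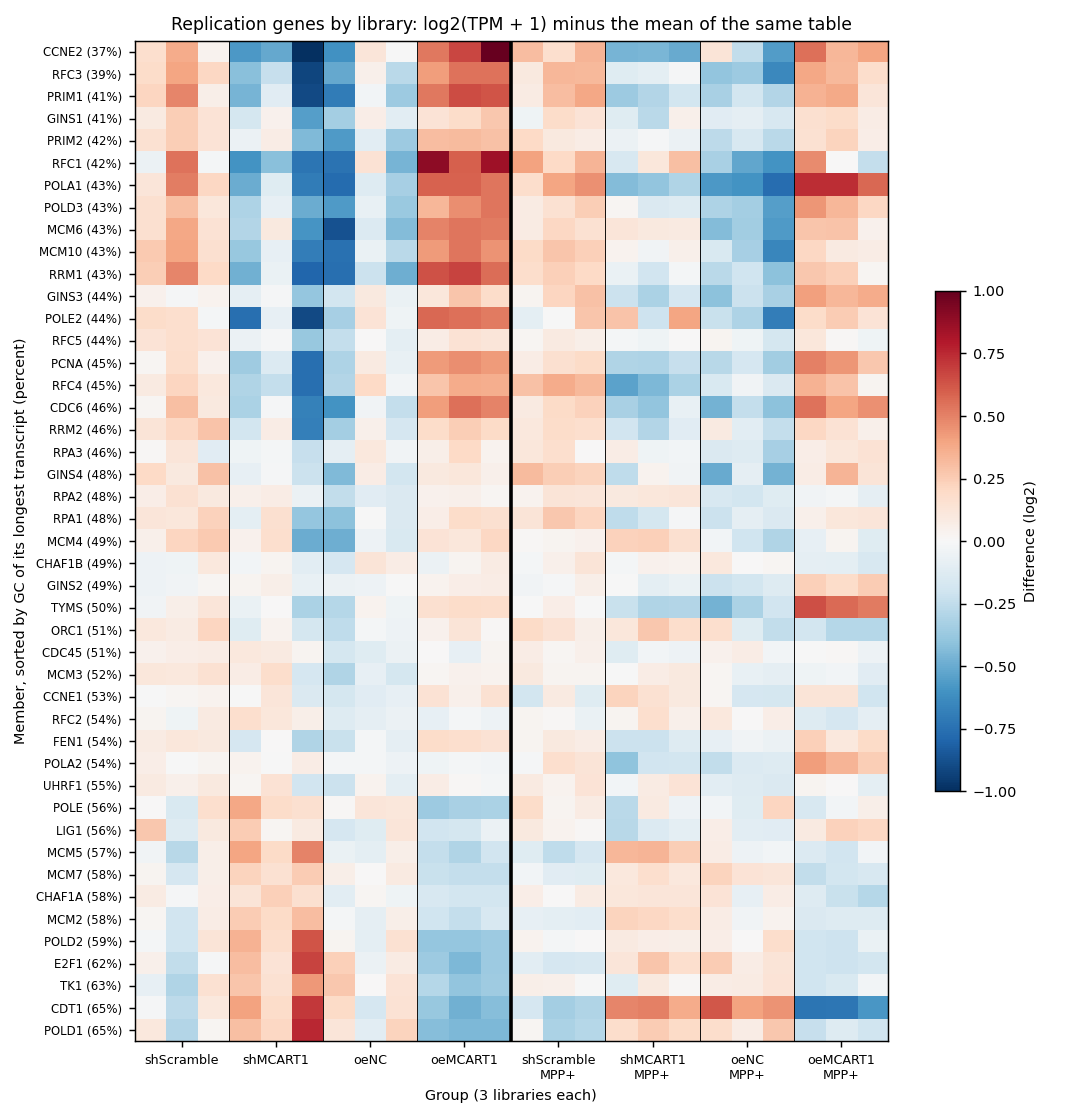
Each row is 1 of the 45 genes, sorted by the GC content of its longest transcript, and each column is 1 library. Colour is log2(TPM + 1) minus the gene's mean over the 12 libraries of the same table, with the scale cut at 1 and -1. The shMCART1 and oeMCART1 columns without MPP+ show opposite colours from top to bottom, and CDT1, POLA1 and TYMS stand out with MPP+.

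The direction of change ran with the GC content of the transcript, which was 36.9% in CCNE2 and 65.0% in POLD1. Without MPP+ the 8 genes that rose in the knockdown had transcripts of 57.0% to 65.0% GC, and the 15 that fell had 36.9% to 53.7%. In the overexpression the 18 that rose spanned 36.9% to 53.7% and the 7 that fell 55.6% to 65.0%. Spearman's rho between GC and log2 change over the 45 genes was 0.93 in the knockdown and -0.90 in the overexpression without MPP+, and 0.66 and -0.79 with it. Over all genes with a GC value rho was 0.77, -0.80, 0.46 and -0.59 in the same order. These are correlations across genes measured in the same libraries, which are not independent replicates.

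**Figure D2:**
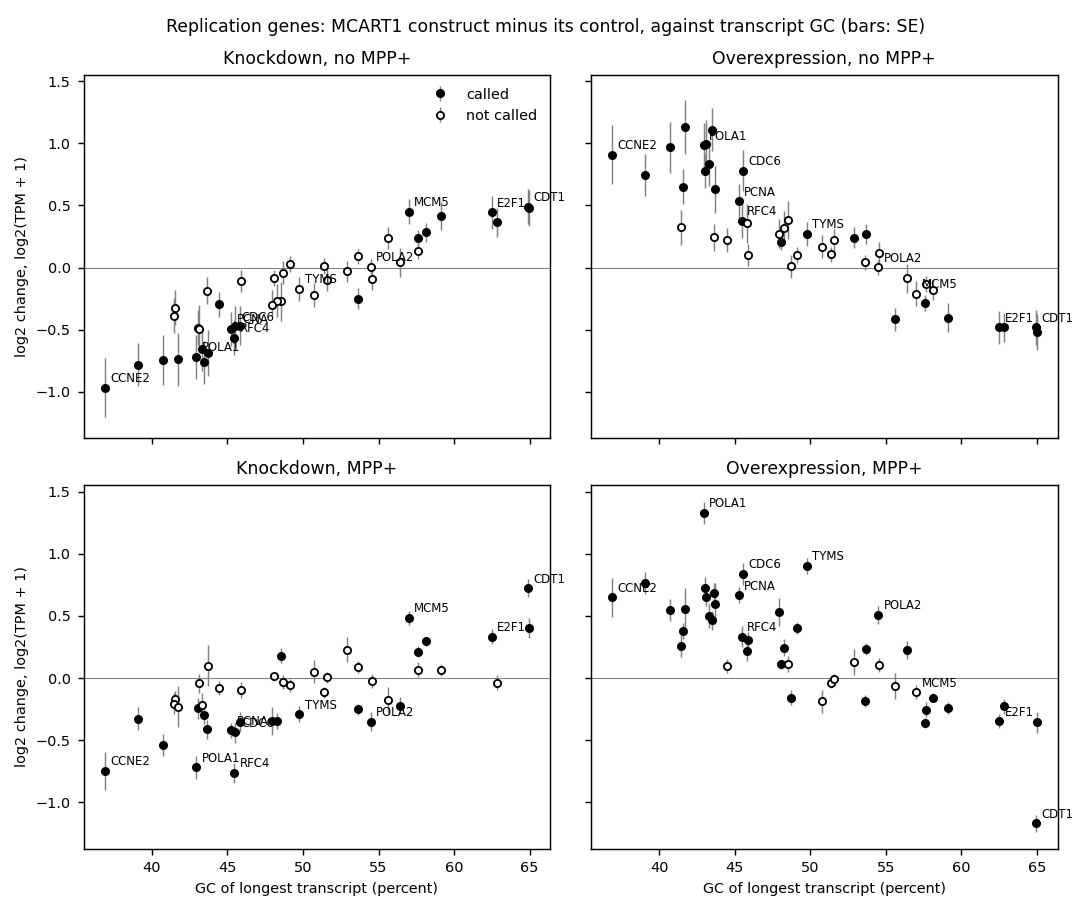
Log2 change of each of the 45 genes (y axis, bars are SE) against the GC percentage of its longest transcript (x axis) in 4 comparisons. Filled points passed adjusted p under 0.05. The points slope up in both knockdown panels and down in both overexpression panels, and CDT1, POLA1, TYMS and POLA2 lie off the slope with MPP+.

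When each library's trend with GC was removed, 4 of the 23 calls of the untreated knockdown were kept in the same direction, 11 of 25 in the untreated overexpression, 20 of 24 in the knockdown with MPP+ and 18 of 36 in the overexpression with MPP+. In the last of these, 4 further genes were called in the opposite direction after the removal. Another 2 scalings of the libraries and the joint removal of GC and length trends were also run. Calls kept under all 4 numbered 2 in the untreated knockdown (MCM5 and RRM1), 9 in the untreated overexpression, 18 in the knockdown with MPP+ and 15 in the overexpression with MPP+. A set of 9 genes was kept in both comparisons with MPP+, which is 50% of the 18 and 60.0% of the 15, and each moved in opposite directions in the pair. CDT1, MCM2, MCM7 and E2F1 were higher in the knockdown and lower in the overexpression. CDC6, GINS3, PCNA, POLA1 and POLA2 were lower in the knockdown and higher in the overexpression. Shares of all genes kept or shared in this way are not given here, so these counts do not show a trait particular to the list. The untreated knockdown rested on single libraries and on the other groups in the fit. With only shMCART1 and shScramble fitted, 0 of its 23 calls were kept. Without shScramble replicate 2 no gene of the list was called (8 higher and 16 lower at an unadjusted p under 0.05), without shMCART1 replicate 3 none was higher and 1 lower, without shMCART1 replicate 1 it was 1 and 5, and without shScramble replicate 1 the count of lower genes was 9. In the untreated overexpression the 7 lower genes became 4 without oeNC replicate 3. Its control also stood apart in the share of TPM from mitochondrial DNA genes, 8.06% to 10.3% in oeNC against 4.04% to 5.58% in the other 3 groups without MPP+. With those genes left out, 20 of the 25 calls were kept.

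**Figure D3:**
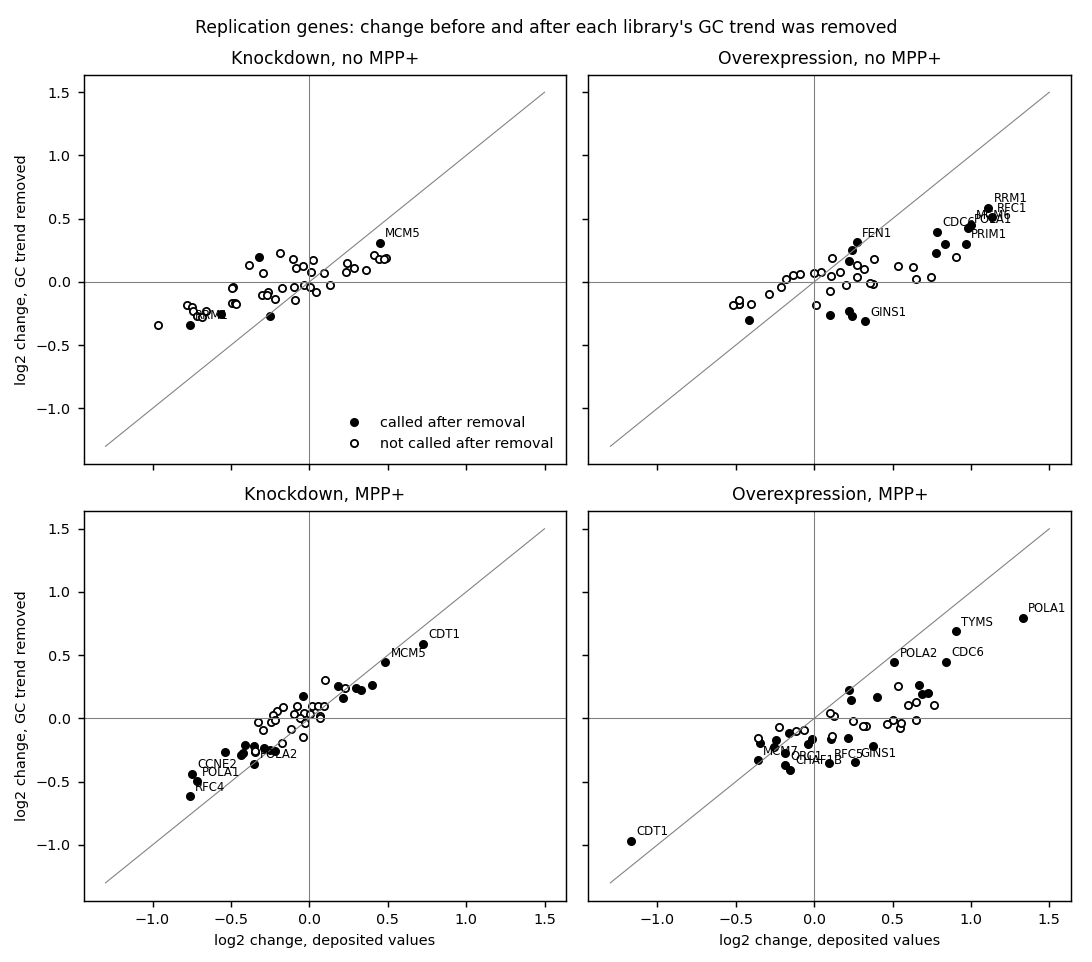
Log2 change of each of the 45 genes on the deposited values (x axis) and after each library's GC trend was removed (y axis), in 4 comparisons. Filled points were called after the removal and the diagonal marks equal values. With MPP+, CDT1, POLA1, TYMS, CDC6 and POLA2 stay far from 0 in the overexpression panel, and RFC4, CDT1 and POLA1 do so in the knockdown panel. Most points without MPP+ move toward 0.

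Among the 9 genes of helicase loading, 4 rose and 1 fell in the untreated knockdown, 2 rose and 2 fell in the untreated overexpression, 5 rose and 1 fell in the knockdown with MPP+, and 2 rose and 3 fell in the overexpression with MPP+. CDT1, the loader that is destroyed once S phase begins, had the largest change of the 9 in both comparisons with MPP+, and MCM6 in both without it. The MCM6 change in the untreated knockdown, -0.49, was not called and was close in size to that of CDT1. With MPP+ CDT1 stood at 82.8, 73.4 and 75.5 TPM in shScramble, 131, 133 and 121 in shMCART1, 144, 123 and 128 in oeNC and 55.6, 56.1 and 61.8 in oeMCART1. The groups of each pair did not overlap, and the 2 controls also lay apart, with oeNC as high as the knockdown. The change was 0.72 (SE 0.07, adjusted p = 7.0e-05, limma) in the knockdown and -1.17 (SE 0.07, adjusted p = 4.6e-07) in the overexpression. Without the GC trend it was 0.59 and -0.97. Without MPP+ CDT1 was at 65.2, 54.6 and 70.6 TPM in shScramble, 87.0, 74.7 and 108 in shMCART1, 75.3, 58.3 and 72.6 in oeNC and 50.4, 46.9 and 48.7 in oeMCART1. Those changes, 0.49 and -0.48 (SE 0.14 each), passed the test on the deposited values and not after the GC trend was removed.

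CDC6, the ATPase that works with ORC and CDT1, moved the other way. With MPP+ its TPM values were 44.1, 47.2 and 48.7 in shScramble, 32.8, 31.2 and 39.1 in shMCART1, 29.4, 34.8 and 30.9 in oeNC and 60.6, 54.7 and 57.1 in oeMCART1. Neither pair overlapped, and the changes were -0.44 (SE 0.09, limma adjusted p = 0.0031) and 0.84 (SE 0.09, adjusted p = 9.0e-06), or -0.29 and 0.45 without the GC trend. Without MPP+ it fell by 0.47 in the knockdown and rose by 0.78 in the overexpression, and these calls were not both kept after removal of the GC trend.

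The 6 MCM ring subunits did not move as a block. MCM5 with MPP+ read 88.2, 80.4 and 85.6 TPM in shScramble and 121, 122 and 114 in shMCART1, a rise of 0.48 (SE 0.06, adjusted p = 0.00019, limma) that was 0.44 without the GC trend. Its overexpression change with MPP+ was -0.11 (SE 0.06, adjusted p = 0.098), with overlapping groups. MCM2 went from 138, 137 and 136 TPM to 171, 169 and 166 in the knockdown with MPP+ (0.30, SE 0.04), and from 154, 143 and 150 to 132, 134 and 134 in the overexpression (-0.16, SE 0.04). MCM7, the most abundant gene of the list in 6 of 8 groups, changed by 0.21 and -0.36 in the same comparisons. MCM6 had the largest change of the subunits without MPP+, from 28.5, 48.3 and 38.9 TPM in oeNC to 75.3, 77.4 and 76.3 in oeMCART1 (1.00, SE 0.19, adjusted p = 0.0044), while its knockdown change with MPP+ was -0.04 (SE 0.07). MCM3 and the origin subunit ORC1 were called in none of the 4 comparisons. MCM4 rose in the knockdown with MPP+ by 0.18 (SE 0.06, adjusted p = 0.046), a call that ended when any of the 6 libraries compared was left out.

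Of the 6 genes of helicase activation, 1 fell in the untreated knockdown and 1 rose in the untreated overexpression, in both cases MCM10, which helps the helicase to start. With MPP+ 2 fell in the knockdown and 5 rose in the overexpression. GINS3, a subunit of the GINS complex that joins the MCM ring, was at 22.6, 25.8 and 27.2 TPM in shScramble with MPP+, 18.9, 17.5 and 19.5 in shMCART1, 16.4, 18.8 and 17.4 in oeNC and 29.6, 27.9 and 28.9 in oeMCART1. The pairs did not overlap and the changes were -0.41 and 0.69 (SE 0.08 each, limma adjusted p = 0.0023 and 1.7e-05), or -0.21 and 0.19 without the GC trend. GINS2, its partner subunit, was at 43.5, 44.3 and 46.5 TPM in shScramble and 44.5, 41.7 and 42.6 in shMCART1, which overlap, and went from 38.3, 39.1 and 40.6 in oeNC to 52.7, 50.8 and 53.3 in oeMCART1. GINS1, GINS4 and MCM10 also rose in the overexpression with MPP+, by 0.26, 0.53 and 0.50. After removal of the GC trend GINS1 was called lower there, at -0.34, and GINS4 and MCM10 were not called. CDC45, the remaining helicase partner, was called in none of the 4 comparisons, with changes of -0.12 to 0.11.

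The polymerases and primase, 9 genes, gave 2 higher and 4 lower in the untreated knockdown, 5 and 3 in the untreated overexpression, 1 and 4 in the knockdown with MPP+ and 6 and 2 in the overexpression with MPP+. POLA1, the catalytic subunit of polymerase alpha, had the largest rise of any listed gene in the overexpression with MPP+. Its levels with MPP+ were 12.1, 14.2 and 14.9 TPM in shScramble, 7.60, 7.83 and 8.41 in shMCART1, 6.79, 6.66 and 5.84 in oeNC and 18.4, 18.4 and 16.3 in oeMCART1. No pair overlapped, and as with CDT1 the oeNC libraries were nearer to shMCART1 than to shScramble. The changes were -0.72 (SE 0.09, adjusted p = 0.00029, limma) and 1.33 (SE 0.09, adjusted p = 8.2e-07), and -0.50 and 0.80 without the GC trend. Without MPP+ POLA1 fell by 0.72 and rose by 0.98, with 21.4, 28.3 and 22.8 TPM in shScramble, 13.6, 17.9 and 11.7 in shMCART1, 11.1, 17.8 and 15.3 in oeNC and 29.9, 30.0 and 28.8 in oeMCART1. Of these, the overexpression change was called without the GC trend (0.43), and the knockdown change was not.

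POLA2, the regulatory subunit of polymerase alpha, behaved differently in the 2 tables. Without MPP+ it was flat, at 61.5, 58.5 and 59.8 TPM in shScramble, 60.2, 58.7 and 61.9 in shMCART1, 58.0, 57.9 and 56.6 in oeNC and 56.9, 58.0 and 57.5 in oeMCART1. The changes there were 0.01 and 0.00 (SE 0.06 each). With MPP+ it was at 45.9, 52.0 and 50.5 TPM in shScramble, 34.8, 40.4 and 40.6 in shMCART1, 38.8, 42.0 and 42.1 in oeNC and 62.2, 58.9 and 55.2 in oeMCART1, with no overlap within either pair. It fell by 0.35 in the knockdown (SE 0.07, limma adjusted p = 0.0042) and rose by 0.51 in the overexpression (SE 0.07, adjusted p = 0.00010). Its transcript has 54.5% GC, and without the GC trend the changes were -0.36 and 0.45.

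PRIM1, the catalytic subunit of primase, fell by 0.54 (SE 0.09) and rose by 0.55 (SE 0.09) with MPP+, and fell by 0.75 and rose by 0.97 without it. After removal of the GC trend its rise in the overexpression with MPP+ turned to -0.08 and was no longer called. Nor were both of its calls without MPP+ kept. POLD1, the catalytic subunit of polymerase delta, has the most GC-rich transcript of the list and moved the other way, from 51.5, 40.8 and 41.6 TPM to 57.8, 61.0 and 58.1 in the knockdown with MPP+ (0.40, SE 0.08) and from 57.6, 53.7 and 61.5 to 43.3, 46.4 and 44.3 in the overexpression (-0.36, SE 0.08). The second of these was not called without the GC trend (-0.15, adjusted p = 0.095 in limma). POLD2, a small subunit of the same enzyme, fell by 0.24 in the overexpression with MPP+, and POLD3, another, rose by 0.73. POLE, the catalytic subunit of polymerase epsilon, fell in the untreated overexpression by 0.42 and in no other of the 4 comparisons was it called.

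**Figure D4:**
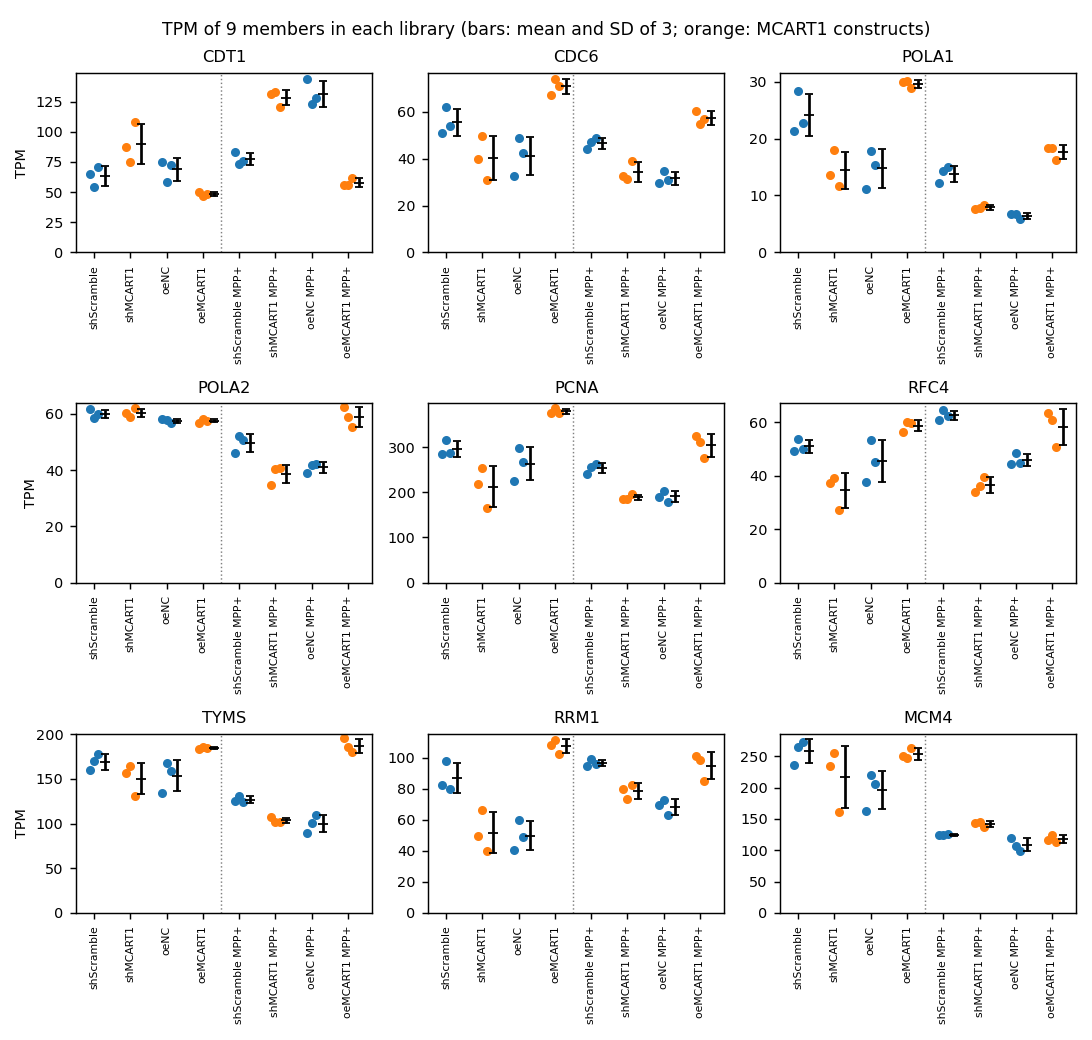
TPM of 9 of the genes in every library (points, linear axis from 0), with the mean and SD of the 3 libraries of each group beside them. MCART1 constructs are orange, controls are blue, and the dotted line separates the tables without and with MPP+. POLA2 is level to the left of the line and spread to the right, and CDT1 is highest in the shMCART1 and oeNC groups with MPP+.

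Among the clamp and its loader, 6 genes, none rose and 5 fell in the untreated knockdown, 4 rose and none fell in the untreated overexpression, none rose and 3 fell in the knockdown with MPP+, and 4 rose and 1 fell in the overexpression with MPP+. PCNA, the clamp itself, stood with MPP+ at 241, 256 and 262 TPM in shScramble, 186, 185 and 195 in shMCART1, 189, 204 and 180 in oeNC and 325, 312 and 276 in oeMCART1. Neither pair overlapped, and the changes were -0.42 (SE 0.06, adjusted p = 0.00070, limma) and 0.67 (SE 0.06, adjusted p = 5.5e-06), or -0.27 and 0.26 without the GC trend. RFC4, a small subunit of the loader, showed the largest fall of any listed gene in the knockdown with MPP+. It went from 60.9, 64.4 and 62.4 TPM to 33.9, 36.0 and 39.6 (-0.76, SE 0.08, adjusted p = 0.00014, limma), and the change was -0.62 without the GC trend. Its rise in the overexpression with MPP+, 0.33, became -0.06 after that removal. RFC1 and RFC3, the large subunit and another small one, rose by 1.13 and 0.74 in the untreated overexpression and by 0.56 and 0.76 with MPP+, and neither rise with MPP+ was called without the GC trend. RFC2 fell by 0.19 in the overexpression with MPP+.

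FEN1, the flap nuclease, fell by 0.25 in both knockdowns and rose by 0.27 and 0.23 in the overexpressions without and with MPP+. LIG1, the ligase, was called only with MPP+, at -0.22 in the knockdown and 0.23 in the overexpression. Median-of-ratios scaling moved the overexpression changes with MPP+ of FEN1 and LIG1 to -0.09 each, and they were then not called. Of the 3 RPA genes, none was called in the untreated knockdown, RPA2 rose in the untreated overexpression by 0.20, RPA1 fell by 0.35 in the knockdown with MPP+, and all 3 rose in the overexpression with MPP+ by 0.11 to 0.31. None of those last 3 rises was called under removal of the GC trend, which gave RPA2 a called change of -0.16.

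In nucleotide synthesis, TYMS, thymidylate synthase, had the second largest rise in the overexpression with MPP+. It read 125, 131 and 124 TPM in shScramble, 107, 102 and 102 in shMCART1, 90.0, 100 and 109 in oeNC and 196, 185 and 180 in oeMCART1. The oeMCART1 libraries lay far above the other 3 groups, and the change was 0.90 (SE 0.06, adjusted p = 9.1e-07, limma), or 0.69 without the GC trend. The knockdown change was -0.29 (SE 0.06, adjusted p = 0.0049). Without MPP+ the overexpression change was 0.27 (SE 0.10, adjusted p = 0.039), from 134, 167 and 159 TPM to 183, 186 and 185. RRM1, the large subunit of ribonucleotide reductase, without MPP+ was at 82.5, 97.6 and 79.9 TPM in shScramble, 49.3, 66.0 and 39.6 in shMCART1, 40.7, 59.5 and 49.0 in oeNC and 108, 111 and 103 in oeMCART1, with changes of -0.76 and 1.11 (SE 0.17 each). With MPP+ the changes were -0.30 and 0.47 (SE 0.07 each). The overexpression effect was smaller with MPP+ by the test of the difference given further on, and the knockdown effects were not shown to differ (0.46, SE 0.20, limma adjusted p = 0.16). RRM2, the small subunit, fell in both knockdowns, by 0.47 and 0.35. TK1, thymidine kinase, rose by 0.36 in the untreated knockdown and fell by 0.48 and 0.23 in the overexpressions, and its knockdown change with MPP+ was -0.04 (SE 0.06).

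The chromatin genes were called in 1 of the 4 comparisons. CHAF1A and CHAF1B, subunits of CAF-1, and UHRF1, which reads hemimethylated DNA, were called in neither knockdown nor in the untreated overexpression. With MPP+ the overexpression lowered CHAF1A by 0.26, from 64.3, 55.2 and 61.8 TPM to 53.3, 50.2 and 47.7, and CHAF1B by 0.16. In G1/S control E2F1 and CCNE2 moved against each other. E2F1 went from 34.1, 32.6 and 32.7 TPM to 40.0, 44.6 and 41.3 in the knockdown with MPP+ (0.33, SE 0.06) and from 44.0, 38.7 and 40.1 to 31.9, 31.8 and 32.2 in the overexpression (-0.35, SE 0.06), without overlap in either pair. Its changes without MPP+ were 0.44 and -0.48 (SE 0.13 each), and these calls were not both kept after removal of the GC trend. CCNE2, a cyclin E gene and the least abundant of the list, fell from 2.70, 2.36 and 2.78 TPM to 1.16, 1.18 and 1.11 in the knockdown with MPP+ (-0.75, SE 0.15) and by 0.97 without it, and rose by 0.65 and 0.91 in the overexpressions. Its rise with MPP+ was -0.01 without the GC trend, and its calls without MPP+ were not both kept after that removal. CCNE1, the other cyclin E gene, was called once, at 0.24 in the untreated overexpression.

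Whether the effect of each construct differed with MPP+ was tested as a difference of the 2 within-table effects over 24 libraries and 13571 genes. Higher and lower refer here to the signed log2 value, not to its size. For the knockdown, 2.02% of all genes had a higher and 2.48% a lower effect with MPP+. Of the list, 0 were higher and 1 was lower, POLA2, with a difference of -0.36 (SE 0.09, adjusted p = 0.031, limma). At an unadjusted p under 0.05, 5 were higher and 4 lower. The POLA2 call ended, at adjusted p of 0.058 to 0.094, when shScramble replicate 2, shMCART1 replicate 1 or 3, shScramble replicate 2 or 3 with MPP+, or shMCART1 replicate 1 with MPP+ was left out, while its value stayed between -0.41 and -0.29. For the overexpression, 14.1% of all genes had a higher and 5.87% a lower effect with MPP+, and of the list 4 were higher and 3 lower. The lower count was 14 after removal of the GC trend and 10 under either other scaling, with 5, 3 and 3 higher. POLA2 had a difference of 0.51 (SE 0.09, adjusted p = 0.00059), TYMS of 0.63 (SE 0.12, adjusted p = 0.00084), GINS2 of 0.30 (SE 0.07, adjusted p = 0.0061) and CDT1 of -0.69 (SE 0.16, adjusted p = 0.0048). These 4, the smallest by p, stayed called without any single library. The other 3 were GINS3 (0.44), RRM1 (-0.64) and RFC2 (-0.23), named here after their values were seen, and each lost its call without 3 to 7 of the 12 libraries. GINS2 was not called under median-of-ratios scaling (0.20) or quantile normalization (0.19).

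The 2 control constructs were also set against each other. Without MPP+, 0.197% of all genes were higher and 1.09% lower in oeNC than in shScramble, and of the list 0 and 1, RRM1 (-0.80, SE 0.17). At an unadjusted p under 0.05 the list had 0 higher and 20 lower, and the share of all genes at that threshold is not given here. The RRM1 call ended without any 1 of 5 of the 6 libraries, and without oeNC replicate 2 the list had 12 lower genes. With MPP+ the controls lay further apart, with 5.13% of all genes higher and 42.8% lower in oeNC, and 6 and 26 of the list. CDT1 was higher in oeNC by 0.76 (SE 0.07, adjusted p = 6.2e-05, limma) and POLA1 lower by 0.99 (SE 0.09, adjusted p = 6.2e-05). The overexpression effects on CDT1 and POLA1 with MPP+ are thus measured from a control that itself differs from shScramble in these genes. POLD1, E2F1, MCM7, MCM5 and MCM2 were the others higher in oeNC with MPP+, by 0.12 to 0.37, and RFC1, RFC3, MCM10, GINS4 and MCM6 were lower by 0.60 to 0.79. Median-of-ratios scaling turned the 6 and 26 into 17 and 8. The all-gene median, -0.25 on the deposited values, was 0.01 under it. Scaled that way, the overexpression changes with MPP+ were -1.50 for CDT1, 1.03 for POLA1, 0.58 for TYMS, 0.52 for CDC6, 0.34 for PCNA and 0.19 for POLA2, all still called.

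Levels with and without MPP+ come from tables that were normalized separately, so they are set side by side without a test. The share of TPM from mitochondrial DNA genes also differed, 4.04% to 10.3% without MPP+ (highest in oeNC) and 0.654% to 1.64% with it (highest in oeMCART1, at 1.45% or more). In 24 of the 45 genes the mean TPM was lower with MPP+ in all 4 constructs, and in 3 it was higher in all 4, where the shares over all genes were 36.2% and 21.0%. The median ratio of the level with MPP+ to that without lay between 0.81 and 0.87 for the list and between 0.84 and 0.98 for all genes over the 4 constructs. The lowest ratios were those of UHRF1, 0.45 to 0.49, GINS1, 0.48 to 0.53, MCM4, 0.46 to 0.65, and POLA1, 0.44 to 0.60. In shScramble, UHRF1 was at 90.1, 87.9 and 91.0 TPM without MPP+ and 42.1, 40.5 and 43.7 with it, and MCM4 at 236, 264 and 274 against 124, 125 and 126. RRM2 read 116, 123 and 129 against 71.4, 75.3 and 74.7. The 3 genes higher in all constructs were PRIM1, with ratios of 1.23 to 1.77, CDT1, with 1.19 to 1.91, and RFC2, with 1.18 to 1.39. Licensing factor CDT1 thus went up in level with MPP+ where its partner CDC6 went down, at ratios of 0.77 to 0.85.

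Other genes of the pathway were read from lists of 76 genes covering origins and forks, nucleotide synthesis, S phase chromatin, G1/S regulation, CDK inhibitors and the replication checkpoint. In the untreated knockdown 6 of 76 rose and 39 fell, in the untreated overexpression 42 rose and 11 fell, in the knockdown with MPP+ 2 of 75 rose and 35 fell, and in the overexpression with MPP+ 54 of 75 rose and 5 fell. Over all genes the called shares in that order were 8.64% and 25.6%, 33.5% and 14.7%, 10.8% and 22.2%, and 46.7% and 14.2%. After removal of the GC trend the counts were 0 and 8, 15 and 7, 7 and 22, and 27 and 12, and with median-of-ratios scaling 15 and 32, 39 and 17, 8 and 24, and 33 and 17. Of the genes named next, HELLS and the others with falls in a knockdown stayed called after the removal, as did ORC5, CCND3, CDKN2D with MPP+, CDKN2A, ASF1A, RNASEH2B, IMPDH2 and CCND1. RAD9A, CHTF18, WDHD1, RRM2B, RECQL4, CDKN1C and, without MPP+, CDKN2D did not. HELLS, a chromatin remodeller, fell from a mean of 21.1 to 10.0 TPM and from 11.7 to 6.62 in the knockdowns without and with MPP+. TOPBP1, a checkpoint and initiation factor, and CDC7, the kinase that fires origins, fell by 1.01 and 0.97 in the untreated knockdown, where RAD9A, CDKN2D and CHTF18 rose by 0.37 to 0.40. WDHD1, RRM2B and ORC5 led the rises of the untreated overexpression at 1.09 to 1.22, and CHTF18, CCND3 and RECQL4 the falls at -0.51 to -0.48. With MPP+, RNASEH2B and DSCC1 fell in the knockdown by 0.85 and 0.80, and CDKN2D and CDKN2A rose by 0.46 and 0.24. RRM2B, ASF1A and RNASEH2B rose in the overexpression with MPP+ by 1.31 to 1.58, and IMPDH2, CCND1 and CDKN1C fell by 0.69, 0.63 and 0.53.

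CDKN1A, which encodes the CDK inhibitor p21, lies outside the naming rule and is given after its values were seen. With MPP+ its mean was 17.2 TPM in shMCART1 against 29.4 in shScramble (-0.74, SE 0.10) and 56.6 in oeMCART1 against 26.2 in oeNC (1.09, SE 0.10). The difference of its effects with and without MPP+ was -1.05 for the knockdown (limma adjusted p = 0.0025) and 0.74 for the overexpression (adjusted p = 0.0040). Of 19 mitosis genes tested, 2 rose and 12 fell in the untreated knockdown and 11 rose and 4 fell in the untreated overexpression, led by CCNA2 (-1.17) and PLK1 (0.34) and by TOP2A (1.25) and PLK1 (-0.48). With MPP+ 1 rose and 10 fell in the knockdown and 14 rose and 1 fell in the overexpression, where KIF11 changed by -0.87 and 1.30, KIF20A rose by 0.24 in the knockdown and AURKB fell by 0.15 in the overexpression. These counts stand beside the same all-gene shares as the pathway lists, and after removal of the GC trend they were 1 and 5, 6 and 6, 1 and 5, and 5 and 2 in the order given.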

How the data were processed

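Poly(A) RNA libraries were sequenced from 8 groups of 3, and the authors deposited gene-level TPM values in 2 tables, one without and one with MPP+. Per the submitters' processing notes the builds are GRCm38, mm10 and GRCh38, with no role stated for any of them. For the aligner, the counting tool and its settings, names were not given in the sources used here. The tables hold 63266 and 36783 entries, of which 25 and 42 carried no gene identifier and were left out, and 31524 identifiers are shared. Groups come from the sample labels. Symbols, transcript length and GC came from GENCODE for the longest transcript of a gene.

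A gene entered the tests of a table if 3 or more of its 12 libraries reached 1 TPM. The model was limma 3.58.1 (R 4.3.3) with trended variance on log2(TPM + 1) of all 4 groups, and p-values were adjusted by Benjamini-Hochberg. TPM values are relative to each library's total, so a shift in abundant transcripts moves all others. The GC trend was removed per library with a spline of 5 degrees of freedom. Alternatives were other scalings, filters and pseudocounts, mitochondrial genes left out, a replicate block, library weights, a robust variance model, only the groups compared, and each library left out. The method was tested on simulated data with independent normal noise. Those data held no GC trend and no shift in scaling, so the simulation does not bear on either. The members and lists were chosen with earlier results of these data known. Named were, per comparison, up to 6 genes of the list in each direction with the largest called change and no overlap between groups, up to 4 called differences between effects by p, up to 3 genes a direction from the other pathway lists and 1 from the mitosis list, and SLC25A51.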

Additional observations from a re-analysis of the deposited data

Results flagged for a closer look

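The effect of a construct on a listed gene differed in 8 cases between cells with and without MPP+ by the test of the difference itself (limma over 24 libraries, adjusted p under 0.05 over 13571 genes). For the knockdown this was POLA2, at -0.36 on the log2 scale, with both group means near 60 TPM without MPP+ and 38.6 against 49.5 TPM with it. For the overexpression the differences were 0.51 for POLA2, 0.63 for TYMS, 0.44 for GINS3 and 0.30 for GINS2, each higher with MPP+. The differences for CDT1 (-0.69), RRM1 (-0.64) and RFC2 (-0.23) were negative. The fall of CDT1 in the overexpression was larger with MPP+, and the rise of RRM1 was smaller. RFC2 was called lower only with MPP+. POLA2 is the gene of the list whose difference passed in both, in opposite directions. Over all genes, 2.02% had a higher and 2.48% a lower knockdown effect with MPP+. For the overexpression these shares were 14.1% and 5.87%. With only the compared groups fitted, the 1 knockdown call was lost and the 7 overexpression calls were kept. Calls kept whichever single library was left out numbered 0 for the knockdown and 4 for the overexpression. Both effects in each difference were taken within a table, and the part of the separate processing of the 2 tables was not tested. The controls oeNC and shScramble also lay further apart with MPP+ than without it. The part of oeNC in the overexpression differences was not tested.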

How the results depend on the processing

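Same-numbered libraries of compared groups had correlations of their deviations from the group means between -0.07 and 0.21. These values do not show whether such libraries shared a culture or batch. With a replicate block 22 of the 24 calls of the MPP+ knockdown were kept. The block changed none of the calls of the 66 member changes named by the rule. Those 66 kept their direction under every alternative run, and 22 lost their call when the GC trend was removed and 15 when only the compared groups entered the fit. The counts over the list and its median moved more. The causes of these moves were not tested. Shares of all genes called under each alternative are not given here, so the counts below cannot be set against them. In this account the controls are oeNC against shScramble, and a difference is the effect with MPP+ minus that without. With the GC trend removed, calls higher were 2 in the untreated knockdown, 11 in the untreated overexpression, 10 in the MPP+ overexpression, 2 in the untreated controls, 12 in the MPP+ controls and 1 in the knockdown difference. With GC and length trends removed they were 1 in the untreated knockdown, 11 in the untreated overexpression, 10 in the MPP+ overexpression, 2 in the untreated controls, 12 in the MPP+ controls and 1 in the knockdown difference. With the replicate block and the GC trend removed they were 11 in the untreated overexpression, 12 in the MPP+ overexpression, 2 in the untreated controls, 12 in the MPP+ controls and 2 in the knockdown difference. Under median-of-ratios scaling they were 13 in the untreated knockdown, 11 in the MPP+ knockdown, 11 in the MPP+ overexpression and 17 in the MPP+ controls. Under quantile normalization they were 13 in the MPP+ overexpression. With library weights they were 29 in the untreated overexpression, 3 in the untreated controls and 8 in the knockdown difference. With only the compared groups in the fit they were 0 in the untreated knockdown. With no filter they were 4 in the untreated knockdown. With the GC trend removed, calls lower were 3 in the untreated knockdown, 16 in the MPP+ overexpression, 4 in the untreated controls, 2 in the MPP+ controls, 3 in the knockdown difference and 14 in the overexpression difference. With GC and length trends removed they were 3 in the untreated knockdown, 18 in the MPP+ overexpression, 4 in the untreated controls, 2 in the MPP+ controls, 4 in the knockdown difference and 15 in the overexpression difference. With the replicate block and the GC trend removed they were 6 in the untreated knockdown, 17 in the MPP+ overexpression, 6 in the untreated controls, 4 in the MPP+ controls, 4 in the knockdown difference and 13 in the overexpression difference. Under median-of-ratios scaling they were 11 in the untreated overexpression, 19 in the MPP+ overexpression, 8 in the MPP+ controls and 10 in the overexpression difference. Under quantile normalization they were 16 in the MPP+ overexpression, 17 in the MPP+ controls and 10 in the overexpression difference. With library weights they were 11 in the untreated overexpression, 25 in the untreated controls, 10 in the knockdown difference and 5 in the overexpression difference. With only the compared groups in the fit they were 0 in the untreated knockdown, 0 in the untreated controls and 0 in the knockdown difference. With the replicate block alone they were 10 in the untreated controls and 3 in the knockdown difference. With no filter they were 0 in the untreated controls. With a filter of 5 TPM they were 2 in the untreated controls. With a pseudocount of 0.1 they were 0 in the untreated controls. With a robust variance model they were 2 in the untreated controls. With mitochondrial DNA genes left out they were 0 in the untreated controls. With the GC trend removed, the median log2 change was -0.042 in the untreated knockdown, 0.055 in the untreated overexpression, 6.5e-05 in the MPP+ knockdown, -0.062 in the MPP+ overexpression, -0.053 in the untreated controls, 0.031 in the MPP+ controls, -0.0081 in the knockdown difference and -0.12 in the overexpression difference. With GC and length trends removed, it was -0.033 in the untreated knockdown, 0.047 in the untreated overexpression, 0.0069 in the MPP+ knockdown, -0.055 in the MPP+ overexpression, -0.055 in the untreated controls, 0.025 in the MPP+ controls and -0.12 in the overexpression difference. With the replicate block and the GC trend removed, it was -0.042 in the untreated knockdown, 0.055 in the untreated overexpression, 6.5e-05 in the MPP+ knockdown, -0.062 in the MPP+ overexpression, -0.053 in the untreated controls, 0.031 in the MPP+ controls, -0.0081 in the knockdown difference and -0.12 in the overexpression difference. Under median-of-ratios scaling, it was 0.014 in the untreated knockdown, 0.022 in the untreated overexpression, -0.0049 in the MPP+ knockdown, -0.092 in the MPP+ overexpression, 0.029 in the untreated controls, 0.099 in the MPP+ controls, -0.060 in the knockdown difference and -0.15 in the overexpression difference. Under quantile normalization, it was -0.079 in the MPP+ knockdown, 0.014 in the MPP+ overexpression, -0.076 in the untreated controls, -0.097 in the MPP+ controls and -0.15 in the overexpression difference. With library weights, it was -0.088 in the untreated knockdown. With mitochondrial DNA genes left out, it was 0.017 in the overexpression difference. Leaving out 1 library at a time, calls higher ranged over 0 to 9 in the untreated knockdown and 0 to 5 in the knockdown difference. Likewise, calls lower ranged over 0 to 21 in the untreated knockdown, 4 to 7 in the untreated overexpression, 0 to 12 in the untreated controls, 0 to 4 in the knockdown difference and 1 to 5 in the overexpression difference. Likewise, the median ranged over -0.26 to -0.075 in the untreated knockdown, -0.14 to -0.088 in the MPP+ knockdown, -0.27 to -0.12 in the untreated controls, -0.26 to -0.20 in the MPP+ controls, -0.015 to 0.11 in the knockdown difference and -0.13 to 0.037 in the overexpression difference. The estimation of library weights stopped before its convergence tolerance was reached in some fits, so values with those weights are approximate. Counts and medians not given here stayed within 1.5 times, or within the spread between libraries, of the values reported. The number of reads behind each TPM value is unknown, so counting error could not be given for any gene, CCNE2 at 0.68 to 7.20 TPM included. All comparisons rest on 3 libraries a group.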
